A study of Mus musculus with 2 samples.

Results

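The Reg genes encode small secreted lectins of the C-type fold, and their transcripts were compared between small intestine with an epithelial deletion of Spib and small intestine of wild-type mice. The genes were chosen by family name, as Reg1, Reg3a, Reg3b, Reg3d, Reg3g and Reg4, which are 6 of the 27275 genes in the table, and all 6 were found. They were picked with their values in these same libraries known, so their differences are described here and not tested. The knockout (KO) library came from naive mice labelled Spibfl/flVillin-Cre, in which Cre recombinase under the villin promoter removes the floxed gene from intestinal epithelium but not from immune cells. The wild-type (WT) library came from naive mice labelled Spib+Villin-Cre, so the labels name Villin-Cre in both genotypes. Spib encodes an ETS family transcription factor known for its role in M cells and B cells. The labels used here state neither age and sex nor how many mice each library holds.

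Each genotype had 1 library, so no value below has a replicate, no p-value is given, and every difference is one between these libraries. The values are FPKM, the reads of a gene per kilobase of its exons, scaled to the size of the library. The implied library sizes were 17658566 reads for KO and 17425640 reads for WT. Spib itself had 0.592 FPKM in the KO library and 4.94 FPKM in the WT library. The design text calls the tissue proximal, and markers of both ends of the small intestine were present in both libraries. Of proximal markers, lactase Lct had 199 FPKM in KO and 190 FPKM in WT, Ada had 118 FPKM in KO and 136 FPKM in WT, Gata4 had 17.2 FPKM in KO and 15.7 FPKM in WT, and the duodenal factor Pdx1 had 0.0262 FPKM in KO and 0.106 FPKM in WT. The ileal bile acid binding protein Fabp6 had 1735 FPKM in KO and 2030.2 FPKM in WT.

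Reg3 lectins are released by enterocytes and Paneth cells into the mucus. REG3G kills Gram-positive bacteria by binding their peptidoglycan, and REG3B also acts on Gram-negative bacteria. Their transcription in epithelium is known to depend on microbial signals through MyD88 and on interleukin-22, which acts through STAT3. Reg1 was first known as a pancreatic stone protein and Reg4 as a product of enteroendocrine and other secretory cells of the crypt. Reg1 and the Reg3 genes lie together on chromosome 6, whereas Reg4 lies alone on chromosome 3.

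The promoters are shown because the genes of chromosome 6 and Reg4 differed in opposite directions. The sequences are the bases just before the RefSeq start of each gene, on the strand of the gene, in GRCm38.p6, the same assembly as mm10. Reg3g is chr6:78468875-78469124 on the minus strand, Reg3a is chr6:78380459-78380708 on the plus strand, Reg3d is chr6:78378866-78379115 on the minus strand and Reg4 is chr3:98221906-98222155 on the plus strand. For Reg3b (chr6:78370855-78370884, plus strand) and Reg1 (chr6:78425953-78425982, plus strand) the last 30 bases are shown, because exons of other transcripts of these genes overlap the rest of the window. Capitals mark TATAAA on either strand, TTCNNNGAA, the STAT motif, which reads the same on both strands, the run TGCCAAGCAC and the run ACAGTCATCTCTGTCCTGAC.
Reg3g: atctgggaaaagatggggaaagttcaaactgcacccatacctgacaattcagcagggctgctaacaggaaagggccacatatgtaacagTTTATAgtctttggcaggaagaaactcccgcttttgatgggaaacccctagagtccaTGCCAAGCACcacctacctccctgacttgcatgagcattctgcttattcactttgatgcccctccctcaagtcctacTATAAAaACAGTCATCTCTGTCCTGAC
Reg3b: tTATAAAaacACAGTCATCTCTGTCCTGAC
Reg3d: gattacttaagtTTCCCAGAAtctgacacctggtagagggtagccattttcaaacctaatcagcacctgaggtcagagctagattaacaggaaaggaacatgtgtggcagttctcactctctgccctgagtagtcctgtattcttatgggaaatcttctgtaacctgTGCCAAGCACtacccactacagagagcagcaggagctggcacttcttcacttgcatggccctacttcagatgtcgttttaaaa
Reg3a: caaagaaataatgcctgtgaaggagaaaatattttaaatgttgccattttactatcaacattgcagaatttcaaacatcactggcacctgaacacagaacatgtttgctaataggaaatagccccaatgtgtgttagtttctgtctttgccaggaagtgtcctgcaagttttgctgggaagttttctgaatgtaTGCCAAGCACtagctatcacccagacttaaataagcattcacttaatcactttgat
Reg1: TATAAAaggcctaccttttcctttcctgac
Reg4: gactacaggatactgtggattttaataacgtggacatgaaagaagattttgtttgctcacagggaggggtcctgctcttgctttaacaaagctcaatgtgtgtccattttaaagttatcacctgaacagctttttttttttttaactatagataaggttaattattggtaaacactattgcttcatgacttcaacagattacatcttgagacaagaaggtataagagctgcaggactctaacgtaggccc

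Reg3g and Reg3b shared the run ACAGTCATCTCTGTCCTGAC, which ends at the base before the start in both. It occurred in 2 of the 32851 promoter windows of 250 bases in the table, which are these genes. A TATAAA began 27 bases before the start of Reg3g, 29 bases before that of Reg3b and 30 bases before that of Reg1, and 12.4% of all windows held this motif. Reg3g held a further match on the other strand, 161 bases before its start. Neither Reg3a, Reg3d nor Reg4 held one in this window. The longest run present in at least 3 of the members, TGCCAAGCAC, was found in Reg3g, Reg3d and Reg3a and in 0.0883% of all windows. Both runs were found by comparing these promoters, so their rarity is a description of how they were picked. TTCNNNGAA occurred in Reg3b, 129 bases before the start and outside the stretch shown, and in Reg3d, 238 bases before it, against 7.02% of all windows. GAGGAA, a longer form of the GGAA core bound by Spi-B and related ETS factors, was in none of the 6 windows and in 23.3% of all windows. The core GGAA itself was not counted over all windows. On either strand it occurs in the printed bases of Reg3g, Reg3d, Reg3a and Reg1 and not in those of Reg3b and Reg4. The absence of GAGGAA is therefore not an absence of ETS cores. Over the aligned bases, the window of Reg4 was 67.6% to 73.1% identical to those of the other members. The windows of the Reg3 genes were 72.0% to 79.0% identical to each other. Gapped positions are left out and no unrelated windows were aligned, so these ranges have no baseline and do not measure likeness. No match says only that these letters are not in the window, and no binding was measured.

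Both abundant bactericidal lectins were lower in the KO library. Reg3g (ENSMUSG00000030017, chromosome 6, 78466269 to 78468872, minus strand) had 76.9 FPKM in the KO library, from 2872 reads, and 2329.5 FPKM in the WT library, from 85814 reads. Reg3b (ENSMUSG00000071356, chromosome 6, 78370657 to 78373466, plus strand) had 618 FPKM in the KO library, from 12467 reads, and 8421 FPKM in the WT library, from 167576 reads. The 2 genes differed by unequal amounts. Reg3g was lower by 30.3-fold (95% interval for counting error 29.2 to 31.4), and Reg3b by 13.6-fold (13.4 to 13.9). These intervals are exact Clopper-Pearson intervals that cover counting error only and treat each read as an independent molecule, and variation between mice is not in them. Reg3b stood 8.04-fold above Reg3g in the KO library and 3.61-fold above it in the WT library. By abundance Reg3b ranked 65 among all genes in the KO library and 3 in the WT library, and Reg3g ranked 619 in KO and 15 in WT.

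The level of Reg3g relative to the other genes depends on the length it was divided by. Its values stepped in whole reads over a summed exon length of 2114 bases, which includes an annotated transcript with a retained intron, while its coding transcript is 771 bases long. Over the longest coding transcript, Reg3g reached 211 FPKM in the KO library and 6387 in the WT library, and Reg3b reached 902 in KO and 12282 in WT. Reg3b remained the higher of the 2 on either length. The fold between the libraries does not depend on the length.

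The less abundant Reg3 genes were lower as well. Reg3d (ENSMUSG00000068341, chromosome 6, 78375874 to 78378865, minus strand) had 0.652 FPKM in the KO library, from 9 reads, and 6.31 FPKM in the WT library, from 86 reads. The fold of 9.68 had an interval of 4.87 to 21.9, which takes in the fold of Reg3b and not that of Reg3g. Reg3a (ENSMUSG00000079516, chromosome 6, 78380709 to 78383827, plus strand) had 39.1 FPKM in the KO library, from 570 reads, and 99.96 FPKM in the WT library, from 1437 reads. Human REG3A is the member best known as an antibacterial protein in people, but mouse Reg3a is a gene of its own beside Reg3g and Reg3b. Its difference was the smallest of the Reg3 genes, 2.55-fold lower with an interval of 2.32 to 2.82. Reg3a was therefore a larger part of the Reg3 transcripts in the KO library, at 5.32% of their summed FPKM, than in the WT library, at 0.921%.

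Reg1 went with its neighbours and not with Reg4. Reg1 (ENSMUSG00000059654, chromosome 6, 78422711 to 78428667, plus strand) had 6.01 FPKM in the KO library, from 96 reads, and 18.6 FPKM in the WT library, from 293 reads. It was 3.09-fold lower with an interval of 2.45 to 3.94, which overlaps that of Reg3a, so the folds of Reg1 and Reg3a could not be told apart at this depth. Along the chromosome the folds followed no gradient. From the lowest coordinate upward Reg3b was 13.6-fold lower, Reg3d 9.68-fold, Reg3a 2.55-fold, Reg1 3.09-fold and Reg3g 30.3-fold.

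Reg4 was higher in the KO library. The gene (ENSMUSG00000027876, chromosome 3, 98222156 to 98236748, plus strand) had 592 FPKM in the KO library, from 10676 reads, and 68.9 FPKM in the WT library, from 1226 reads. It was 8.59-fold higher with an interval of 8.10 to 9.12. Reg4 ranked 69 by abundance in the KO library and 706 in the WT library. In the KO library it was nearly level with Reg3b, which stood 1.04-fold above it, whereas in the WT library Reg3b stood 122-fold above it.

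**Figure D1:**
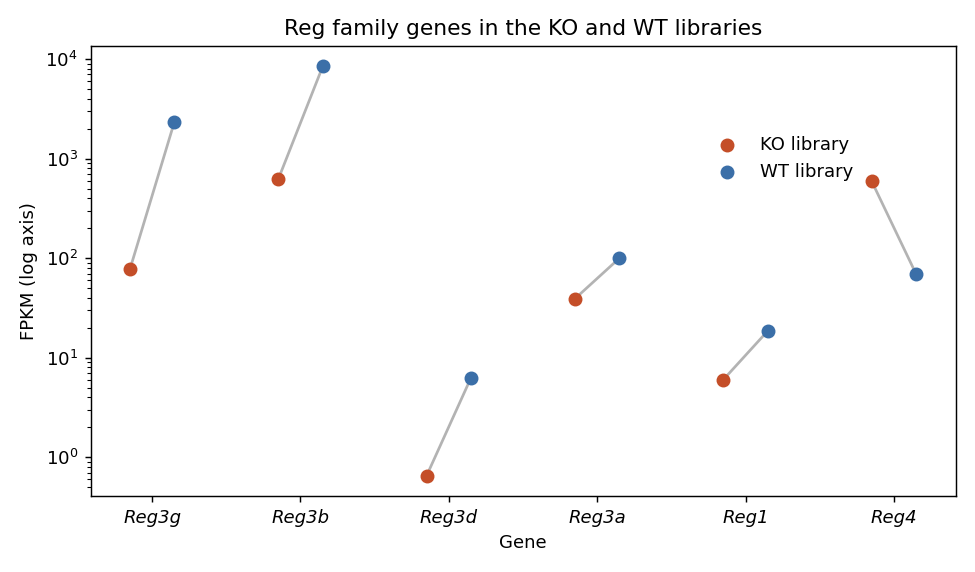
FPKM of each Reg gene (log axis) in the KO library (orange, left of each pair) and in the WT library (blue, right), 1 library each, with a line joining the 2 values of a gene. The points of 5 genes are lower in KO, and Reg4 alone is higher, at 592 FPKM in KO against 68.9 FPKM in WT.

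On the scale used for counting, log2((KO FPKM + 1) / (WT FPKM + 1)), the ratios were -4.90 for Reg3g, -3.77 for Reg3b, -2.15 for Reg3d, -1.48 for Reg1, -1.33 for Reg3a and 3.08 for Reg4. The added 1 FPKM understates the difference of low genes such as Reg3d. At least 2-fold lower were 5 of the 6 genes, beside 2.51% of all 13479 genes with at least 1 FPKM in at least 1 library. At least 2-fold higher was 1 of the 6, beside 1.61% of those genes, so that all 6 were past 2-fold in either direction, beside 4.12%. Since the genes were chosen with this contrast in view, nothing is read from these counts. From the low end of the 13479 genes Reg3g ranked 8, Reg3b 26, Reg3d 98, Reg1 170 and Reg3a 203, and Reg4 ranked 8 from the high end. The median log2 ratio of all these genes was -0.049.

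**Figure D2:**
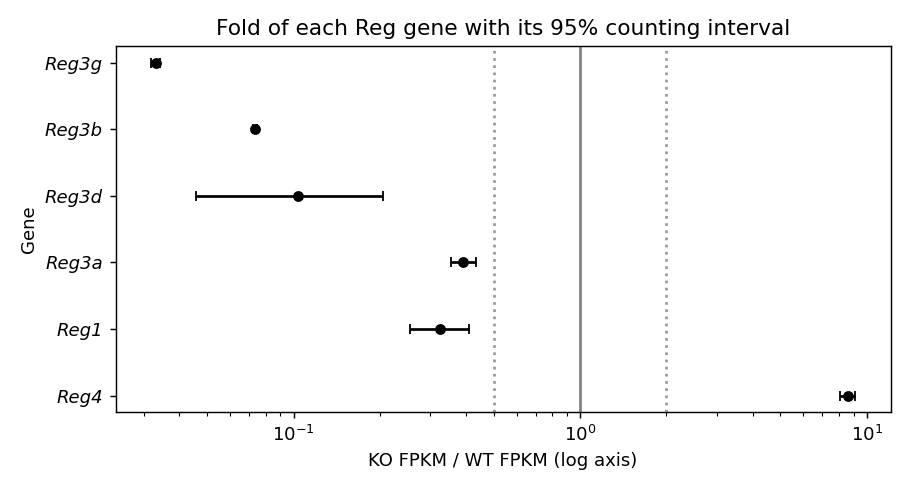
Ratio of KO FPKM to WT FPKM for each Reg gene (log axis, points) with its 95% counting interval (bars), 1 library each. The solid line marks equal values and the dotted lines 2-fold. The interval of Reg3d, which rests on 9 reads in KO and 86 reads in WT, is the widest, and no interval reaches the line of equal values.

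**Figure D3:**
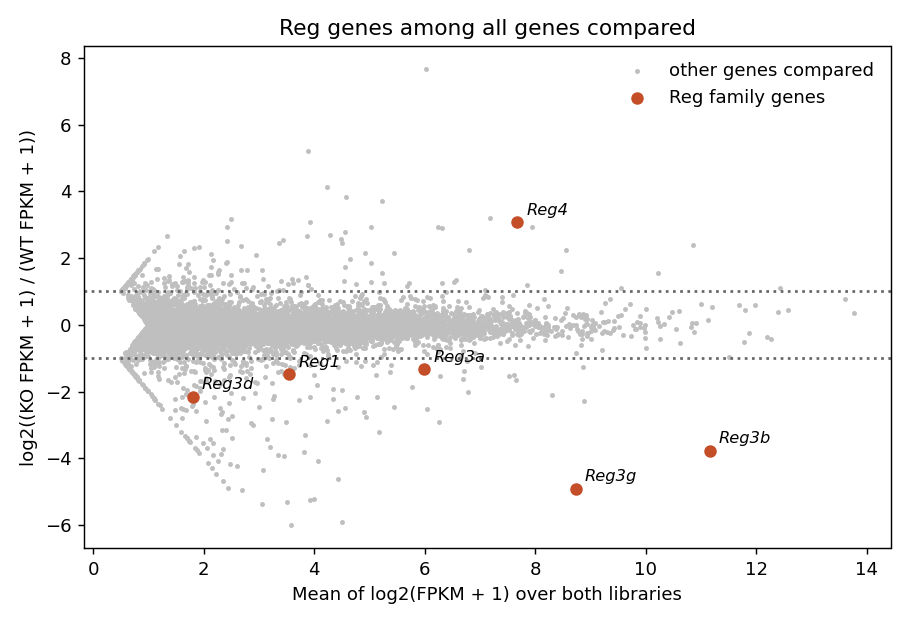
Each of the 13479 genes compared is a grey point, placed by its mean log2(FPKM + 1) over both libraries and its log2 ratio of KO to WT, with the Reg genes in orange. The dotted lines mark 2-fold. Reg3g and Reg3b lie low at a high mean level, and Reg4 lies high.

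The make-up of the family changed with these differences. The 4 Reg3 genes summed to 735 FPKM in the KO library and 10857 FPKM in the WT library, 14.8-fold lower (95% counting interval 14.5 to 15.02). All 6 genes summed to 1333 FPKM in the KO library and 10944 FPKM in the WT library, 8.21-fold lower. They took 0.353% of all FPKM in KO and 2.96% in WT. Within the family, Reg3b held 46.4% of the summed FPKM in KO and 76.9% in WT, and Reg3g held 5.77% in KO and 21.3% in WT. Reg4 held 44.4% in KO and 0.630% in WT. Reg1, Reg3a and Reg3d together stayed a small part, with Reg3a the largest of them at 2.93% in KO and 0.913% in WT. The Reg3 share of the family was 55.1% in KO and 99.2% in WT. Counted per length of the coding transcript it was 65.8% in KO and 99.5% in WT, so the size of this shift depends on the length used for Reg3g and Reg3b.

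**Figure D4:**
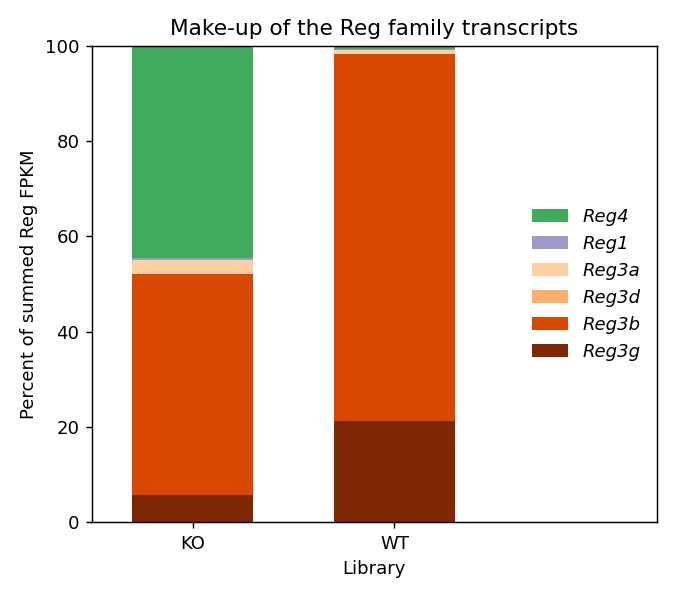
Stacked bars of the percent of the summed Reg FPKM held by each gene, with the KO library on the left and the WT library on the right, 1 library each. Reg4 holds 44.4% of the KO bar and 0.630% of the WT bar, and Reg3g holds 5.77% of the KO bar and 21.3% of the WT bar.

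The transcripts of the Reg genes shared few long identical stretches. The longest coding transcripts of the 6 genes were 71.3% to 78.2% identical over their aligned bases in pairs, with gapped positions left out. No unrelated transcripts were aligned, so this range has no baseline and does not measure how alike the genes are. Reg3b and Reg3g had the longest identical run of any pair, 35 bases. No stretch of 50 bases in these transcripts of Reg3a, Reg3b, Reg3d, Reg3g or Reg4 occurred in a transcript of any other gene of GENCODE M21, on either strand. Of the 855 such stretches in Reg1, 32 occurred elsewhere, in unrelated genes and not in another Reg gene. The labels used here give no read length, and reads shorter than these runs could still be shared. Reg2, which lies between Reg3a and Reg1 and was not among the genes chosen, had 0 reads in the KO library and 1 read in the WT library.

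Genes near the Reg genes were examined within 500000 bases. Near Reg4, Notch2 had 2.95 FPKM in KO and 2.96 FPKM in WT, and Sec22b, a protein of vesicle transport, had 21.1 FPKM in KO and 21.7 FPKM in WT. Phgdh had 5.40 FPKM in KO and 7.02 FPKM in WT, and Pde4dip had 9.09 FPKM in KO and 9.96 FPKM in WT. These genes lay within 2-fold. Around the cluster of chromosome 6, none of the 3 other genes in the table within that distance, Ctnna2, Reg2 and the pseudogene Gm21392, reached 1 FPKM.

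The counts of gene lists that follow use the log2 ratio with 1 FPKM added, on which 4.12% of all genes compared were past 2-fold in either direction and the median was -0.049. Of 21 compared genes of the interleukin-22 and STAT3 axis, none was at least 2-fold higher, 1 was 2-fold lower and 20 lay between, with a median log2 ratio of -0.09. The lower gene was Socs3, a feedback inhibitor and target of STAT3, with 9.42 FPKM in KO and 38.4 FPKM in WT. Stat3 itself had 16.0 FPKM in KO and 23.3 FPKM in WT. The receptor chains of interleukin-22 were present in both libraries, with Il22ra1 at 41.6 FPKM in KO and 37.9 FPKM in WT and Il10rb at 14.4 FPKM in KO and 11.4 FPKM in WT. Il22 had 0 reads in the KO library, where a floor of 3 reads applies, and 8 reads in the WT library. Il23r had 6 reads in KO and 16 reads in WT, and Il17a had none in either. No fold is given for Il22, Il23r or Il17a at these read numbers.

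Of the MyD88 pathway, 23 genes were compared and none was past 2-fold on that scale, with a median of -0.24. By sign, 17 were below 0 and 6 above, beside 7910 below 0 of all 13479 genes. Nfkbia, the NF-kB inhibitor that NF-kB itself induces, had the largest difference, 25.4 FPKM in KO and 50.7 FPKM in WT. Myd88 had 7.74 FPKM in KO and 11.1 FPKM in WT. Extl3, a receptor reported for Reg proteins, had 6.54 FPKM in KO and 6.97 FPKM in WT.

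Other epithelial genes known to respond to interleukin-22 or to microbial signals went both ways, more of them lower. Of 17 compared, 6 were at least 2-fold lower, 2 were higher and 9 lay between, with a median of -0.43. Lower were Saa1, Nos2, Ubd, Tifa, Pla2g5 and Lrg1. The acute-phase gene Saa1 had 1.62 FPKM in KO and 38.4 FPKM in WT, and Nos2, the inducible nitric oxide synthase, had 1.72 FPKM in KO and 28.1 FPKM in WT. Duox2 and Duoxa2, the epithelial source of hydrogen peroxide and its maturation factor, were higher, with Duox2 at 243 FPKM in KO and 50.4 FPKM in WT. The receptor for secreted antibodies, Pigr, had 599 FPKM in KO and 715 FPKM in WT.

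Secreted antimicrobial products other than Reg lectins went both ways. Of 19 compared, 5 were at least 2-fold higher, 1 was lower and 13 lay between, with a median of 0.13. The ribonuclease Ang4 had 4221 FPKM in KO and 809 FPKM in WT, and the pentraxin Mptx1 had 88.2 FPKM in KO and 1.44 FPKM in WT. The scavenger receptor Dmbt1, a mucosal protein that binds bacteria, was the lower one, with 113 FPKM in KO and 357 FPKM in WT. Lyz1 had 4250.3 FPKM in KO and 5754 FPKM in WT, and Lypd8, which keeps flagellated bacteria off the epithelium, had 803 FPKM in KO and 1299.96 FPKM in WT. This list holds near-identical copies such as the Sprr2a genes, whose single values are uncertain. It also shares genes with other lists, as some of the other lists do with each other, so the counts are not separate. Ang4, Mptx1 and Lyz1 are among those also counted as Paneth cell genes below.

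Markers of the cells that make Reg proteins are given beside these values, and their part in the Reg differences was not tested. In whole tissue, fewer cells of a type and less RNA per cell cannot be told apart. None of 18 compared enteroendocrine genes was past 2-fold in either direction on the log2 scale with 1 FPKM added, on which Reg4, known from these cells, was at 3.08. As a plain ratio, Scg5 was 2.21-fold lower (counting interval 1.38 to 3.63), with 0.975 FPKM in KO and 2.16 FPKM in WT. The list's summed FPKM was 284 in KO and 327 in WT, and Chga had 16.6 FPKM in KO and 24.1 FPKM in WT. Of 21 goblet cell genes, 3 were higher and 18 lay between, with a median of 0.27. The higher ones were Clca1, Klk1 and Spink4, and Clca1 had 2059 FPKM in KO and 696 FPKM in WT, while Muc2 had 237 FPKM in KO and 199 FPKM in WT. Of 22 Paneth cell genes, 5 were higher, none was lower and 17 lay between, with a median of 0.23. This list holds only some of the alpha-defensins, so its counts depend on which of them were listed. The listed Defa30 had 8039 FPKM in KO and 3722 FPKM in WT. Of those not listed, Defa36 had 115 FPKM in KO and 327 FPKM in WT, and Defa29 had 297 FPKM in KO and 717 FPKM in WT.

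None of 25 enterocyte genes was past 2-fold on that scale, with a median of 0.02. Villin, Vil1, had 856 FPKM in KO and 924 FPKM in WT. The tuft cell list had 11 of 18 genes higher and none lower, with a median of 1.30 and summed FPKM of 132 in KO and 40.7 in WT. The lymphocyte list had 8 of 23 genes lower and none higher, with a median of -0.81 and summed FPKM of 56.4 in KO and 136 in WT. All 23 were below 0, and the count of 8 depends on the added 1 FPKM, since many of these genes are low. With 0.1 FPKM added the medians were 1.82 for the tuft list and -1.31 for the lymphocyte list, and with 5 FPKM 0.63 and -0.30.

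Reg1 and Reg3 proteins are also known from pancreas, so acinar genes were examined. Of 13 compared, 1 was higher, 1 was lower and 11 lay between, with a median of -0.22. By sign, 11 were below 0 and 2 above, beside 7910 below 0 of all 13479 genes. The added 1 FPKM understates differences at these low levels. As a plain ratio, Cpa1 was 5.40-fold lower (counting interval 2.23 to 15.8), from only 6 reads in KO and 32 reads in WT. Ctrb1 was 2.84-fold lower (1.68 to 4.99), Pnlip 2.09-fold (1.25 to 3.70) and Ctrl 2.07-fold (1.23 to 3.57). Pnliprp1 was 7.41-fold higher (5.77 to 9.66). The most abundant of the list was Spink1, a trypsin inhibitor, with 510 FPKM in KO and 546 FPKM in WT. The higher gene was the lipase relative Pnliprp1, with 13.4 FPKM in KO and 1.81 FPKM in WT, and the lower one was chymotrypsinogen Ctrb1, with 1.29 FPKM in KO and 3.66 FPKM in WT. The defining amylase genes Amy2a5 and Amy2b had 0 reads in both libraries, as had Prss1. They are among the 6 of 27 acinar genes in the table at 0 in both libraries, and the rest had reads in at least 1 library. The elastase Cela1 had 4.67 FPKM in KO and 4.32 FPKM in WT, and carboxypeptidase Cpa1 had 0.194 FPKM in KO and 1.05 FPKM in WT. The part of acinar transcripts in the Reg values was not tested. Genes that mark regions along the gut lay mostly within 2-fold. Of 23 distal genes, 22 lay within 2-fold, with a median of -0.18, 17 below 0 and 6 above. Of 11 proximal genes, 9 lay within 2-fold, with a median of 0.10, 4 below 0 and 7 above. The distal gene Muc3a had 58.0 FPKM in KO and 24.0 FPKM in WT. The proximal gene S100g had 48.5 FPKM in KO and 11.6 FPKM in WT, and Slc40a1 had 3.41 FPKM in KO and 8.75 FPKM in WT. Whether both libraries hold the same stretch of gut was not tested.

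**Figure D5:**
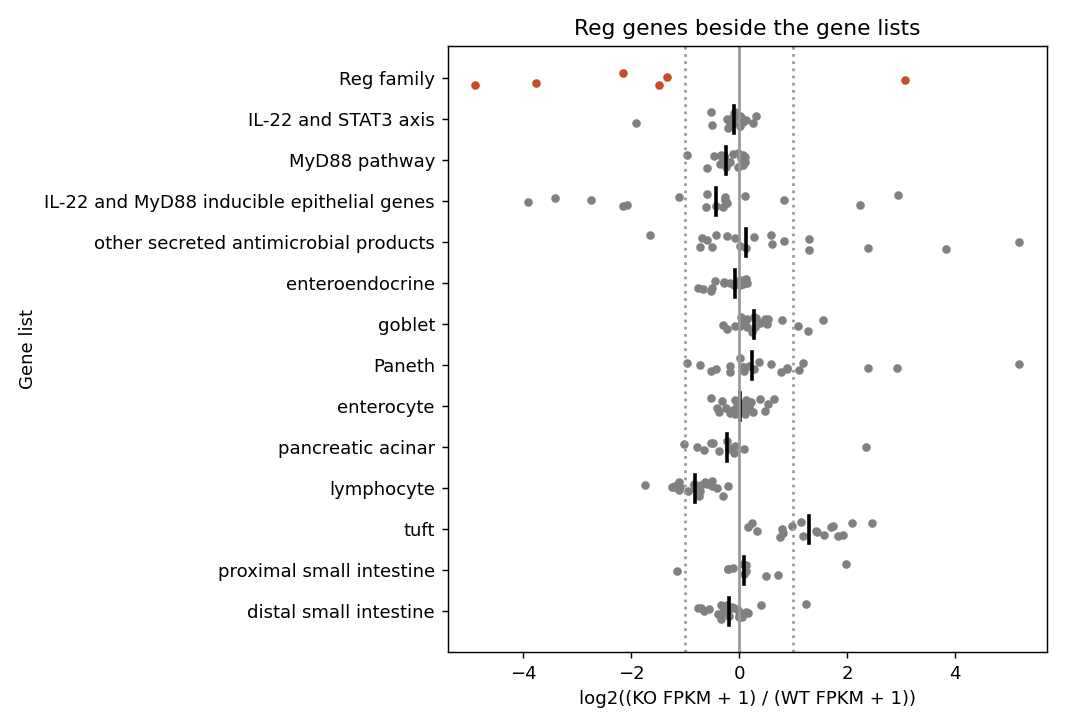
Log2 ratios of KO to WT for the Reg genes (orange, top) and for the compared members of each gene list (grey points), with the median of a list as a black bar and 2-fold as dotted lines, 1 library each. The Reg genes run between -4.90 and 3.08, while all enteroendocrine and enterocyte genes lie within the dotted lines.

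Genes with levels like those of a Reg gene in both libraries were found by distance in the plane of log2(FPKM + 1), over 2 libraries only. Only protein-coding genes were searched. Predicted loci, antibody and T cell receptor genes, ribosomal protein genes, mitochondrial genes and pseudogenes were left out. A gene left out can lie nearer, as the antibody gene Igkc does to Reg3g. For Reg1 these were H2-DMa, H2-DMb1 and Pfkfb3, at distances of 0.13 to 0.18. For Reg3d they were Pla2g5, Mal and Spib, at 0.18 to 0.30. Reg3a had Prss30, Slc34a2 and Upp1 at 0.33 to 0.49, all of which were less than 2-fold lower. Reg4 had Pnliprp2 at 0.39, Gsdmc4 at 0.71 and Duox2 at 1.36. Reg3b and Reg3g had no close companion among the genes searched, of which the nearest lay 2.05 and 2.57 away and were the alpha-defensins Defa21 and Defa29.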

How the data were processed

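RNA of small intestine was taken up in TRIzol and its cDNA amplified by SMART-Seq II, per the labels' protocols. The deposited table holds FPKM values that the authors computed, 1 column per library. Per the submitters' processing notes, which give no roles, Bowtie2 2.2.3, HTSeq 0.6.0 and mm10 were used. Strand, read length, annotation release and pooling of mice: not given in the sources used here. Members and lists were chosen with earlier results of these data known.

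Genes with at least 1 FPKM in at least 1 library were compared as log2((KO FPKM + 1) / (WT FPKM + 1)). Folds are plain FPKM ratios. Reads were recovered from FPKM and the summed exon lengths of GENCODE M21 (27222 identifiers matched), whose steps were whole within 0.01 for 90.7% of values in KO and 90.6% in WT. They give precision only, and PCR copies carry no molecular identifiers, so all intervals and the floor of 3 reads cover counting error only. For a gene with 1 kilobase of exons, that floor is 0.170 FPKM in KO and 0.172 FPKM in WT. Depth recovery was tested on simulated data. Intervals of sums use Poisson variances. Of each list, up to 5 genes past 2-fold and then the most abundant could be named, with up to 8 in all, and for each member the 3 nearest genes. Defining markers at or near 0, low-read cytokines, receptor chains, the regional markers, Scg5 and the unlisted alpha-defensins were named after their values were seen. Of 322 list entries, 3 matched no gene. Transcripts were aligned in place of proteins. Python 3.11.15, scipy 1.17.1 and Biopython 1.88 were used. Pseudocounts, filters and scalings were varied. Not every gene near Reg4 is reported here.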

Additional observations from a re-analysis of the deposited data

How the results depend on the processing

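The direction of each Reg gene, and the counts of 5 members at least 2-fold lower and 1 higher, were the same under both other pseudocounts, all 3 other scalings and both other filters. With a pseudocount of 5 FPKM the log2 ratio was -1.10 for Reg1, -1.001 for Reg3d, close to 2-fold, and -4.83 for Reg3g. Rescaling both libraries to 1 common FPKM sum gave -3.91 for the summed Reg3 genes, -3.07 for the family and -3.80 for Reg3b. Setting the median of all genes to 0 gave -3.83, -2.99 and -3.72 for the same. Rescaling without the 20 most abundant genes gave -3.02 for the family. Without Reg3b, the Reg3 sum was at -4.37, the family at -1.82 and the difference in Reg3 share at -80.2 percentage points, against -44.1 with it. Per length of the coding transcript, an alternative chosen after seeing the data, these were -4.02, -3.43 and -33.7. Over all genes, the 338 lower and 217 higher became 575 and 355 with a pseudocount of 0.1 FPKM, 122 and 61 with 5 FPKM, and 193 and 97 with a filter of 5 FPKM. With the rescaling to 1 common FPKM sum they were 490 and 285, and Reg3d was at -2.73 against -2.15. That sum exceeds those of both libraries, so the added 1 FPKM weighs less there. No paired analysis was possible because each genotype has 1 library, and no library could be left out. Reg3d, at 9 reads in KO, is the member that depth limits most.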
